A study of Mus musculus with 9 samples.

Results

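The 10 genes described here are the 9 HOX genes of the HOXA and HOXD clusters that pattern the limb along its length, Hoxa9, Hoxa10, Hoxa11, Hoxa13, Hoxd9, Hoxd10, Hoxd11, Hoxd12 and Hoxd13, and Tbx5, the T-box gene of the forelimb. They were chosen by symbol, and each symbol had 1 row among the 52550 genes of the authors' count table. RNA came from 9 micromass cultures, dense drops of dispersed mouse forelimb cells of embryonic day 12 kept in a medium in which limb mesenchyme can form cartilage. Of these, 3 cultures had been given Z-VAD-FMK (FMK), 3 had been given Q-VD-OPH (OPH) and 3 had been given DMSO, the solvent of the inhibitors. Z-VAD-FMK and Q-VD-OPH are broad caspase inhibitors, and each was present at 100 µM for 6 days. No strain, sex or genetic change is given in the labels, and they name the 3 cultures of a condition biological replicates without saying whether limbs or animals were pooled. The labels call the cells limb-derived chondroblasts. Against this label, 15 of 16 cartilage marker genes had counts in every library, among them Col2a1, the main cartilage collagen gene, at 425 ± 38.7 CPM with FMK, 649 ± 245 CPM with OPH and 1336 ± 302 CPM with DMSO (SD, n = 3 each). Limb mesenchyme markers, the collagen genes Col1a1 and Col3a1 among them, summed to 11770 to 16940 CPM beside them.

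HOX genes encode homeodomain transcription factors and lie in clusters in the order in which they are switched on. In the limb bud the HOXA and HOXD clusters are used in succession, first for the upper arm and forearm and later, through the genes at the high-numbered end, for the wrist and digits. Paralogues with the numbers 9 and 10 act mainly in the upper arm, those with 11 in the forearm and those with 12 and 13 in the hand plate. Tbx5 is needed for the forelimb bud to form and switches on Fgf10, the growth factor gene that keeps the bud growing.

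All 10 genes were expressed in all 9 libraries and all passed the filter on low counts. Libraries held 5659789 to 6867350 counts, of which 0.0492% to 0.0584% belonged to these 10 genes. The lowest single value was 47 counts, for Hoxd12 in a DMSO library. Levels are given as CPM, the counts relative to a library total scaled by the TMM method. Libraries were made with a kit that primes at the poly(A) tail and samples transcript ends, so levels do not scale with transcript length. Whether copies made by PCR were removed before counting is not given in the sources used here. Changes are log2 fold changes ± standard error from edgeR's quasi-likelihood fit to all 9 libraries, and a gene was said to rise or fall where its p, adjusted by Benjamini-Hochberg over 13255 genes, was under 0.05. The scaling assumes that most genes do not change. With library-size scaling in place of TMM, the median over all genes tested was -0.11 for FMK against DMSO and 0.12 for OPH against FMK on the log2 scale. Because these are bulk cultures, fewer cells of a type and less RNA per cell cannot be told apart.

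The labels give the forelimb as the source, and genes that tell forelimb from hindlimb were read against this. Tbx5 stood at 100.0 to 103 CPM in the DMSO libraries, and its hindlimb counterpart Tbx4 averaged 10.4 ± 2.87 CPM with FMK, 7.91 ± 1.88 CPM with OPH and 8.35 ± 0.41 CPM with DMSO (SD, n = 3 each). Pitx1, the homeobox gene that specifies the hindlimb, had 0 counts in all DMSO libraries and at most 10 counts in any other library. Hoxc10 and Hoxc11, HOXC genes of the hindlimb, had at most 2 counts and 0 counts in a library. A count of 0 in a library allows up to 3 counts, or 0.427 to 0.552 CPM, and covers counting error only.

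The 5 HOXD genes lie side by side on the plus strand of chromosome 2 (GENCODE M21, GRCm38, the assembly also called mm10). Hoxd13 (ENSMUSG00000001819) spans 74668310 to 74671599, Hoxd12 (ENSMUSG00000001823) spans 74675013 to 74677705, Hoxd11 (ENSMUSG00000042499) spans 74679557 to 74687016, Hoxd10 (ENSMUSG00000050368) spans 74691924 to 74695105 and Hoxd9 (ENSMUSG00000043342) spans 74697727 to 74700208. The 4 HOXA genes lie on the minus strand of chromosome 6, where Hoxa9 (ENSMUSG00000038227) spans 52223100 to 52231089, Hoxa10 (ENSMUSG00000000938) spans 52231197 to 52240854, Hoxa11 (ENSMUSG00000038210) spans 52242106 to 52245810 and Hoxa13 (ENSMUSG00000038203) spans 52257694 to 52260880. Tbx5 (ENSMUSG00000018263) lies on the plus strand of chromosome 5 from 119832668 to 119885219. Hoxa11 overlaps the opposite-strand transcript Hoxa11os, which had 1341 counts over the 9 libraries. Whether the authors counted by strand is not given in the sources used here, so reads of this pair may have been mixed. The other overlapping annotations, Mir196b in Hoxa9 and Gm28309 across Hoxd10 and Hoxd11, had 0 counts.

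The 4 HOXD genes that moved together with FMK, and Hoxa13, the paralogue of Hoxd13 that did not pass the test, are shown by the 250 bases before their transcription start (RefSeq, GRCm38.p6, read 5′ to 3′ along the gene). Capitals mark matches on either strand to 5 motifs. TTTAT is the core of the sites bound by high-numbered HOX proteins. AGGTGT is the half-site of T-box proteins. TGACAG is the site of MEIS proteins. The other 2 are core promoter elements, the box of the TATA-binding protein, spelled TATAAA, and the box of the factor SP1, spelled GGGCGG.
Hoxd10, chr2:74691641-74691890, plus strand: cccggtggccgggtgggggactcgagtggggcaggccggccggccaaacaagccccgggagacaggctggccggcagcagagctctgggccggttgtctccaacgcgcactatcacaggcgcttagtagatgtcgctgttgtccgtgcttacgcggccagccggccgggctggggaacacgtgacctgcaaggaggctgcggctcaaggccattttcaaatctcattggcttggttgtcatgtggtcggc
Hoxd11, chr2:74679308-74679557, plus strand: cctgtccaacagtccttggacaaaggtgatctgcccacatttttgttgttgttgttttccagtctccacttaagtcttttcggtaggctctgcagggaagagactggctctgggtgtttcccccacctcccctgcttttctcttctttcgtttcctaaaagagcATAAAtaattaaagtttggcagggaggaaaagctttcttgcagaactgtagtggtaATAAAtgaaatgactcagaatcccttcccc
Hoxd12, chr2:74674763-74675012, plus strand: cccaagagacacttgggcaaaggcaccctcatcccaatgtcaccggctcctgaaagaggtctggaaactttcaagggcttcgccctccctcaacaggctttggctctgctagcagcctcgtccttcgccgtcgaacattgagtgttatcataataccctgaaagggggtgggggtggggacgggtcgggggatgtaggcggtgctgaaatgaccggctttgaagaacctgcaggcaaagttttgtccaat
Hoxd13, chr2:74667975-74668224, plus strand: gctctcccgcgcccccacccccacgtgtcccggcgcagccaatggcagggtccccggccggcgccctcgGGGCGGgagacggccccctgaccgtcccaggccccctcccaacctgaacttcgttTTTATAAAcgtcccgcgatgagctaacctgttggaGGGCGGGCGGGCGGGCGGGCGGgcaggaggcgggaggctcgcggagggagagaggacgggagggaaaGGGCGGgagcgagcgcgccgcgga
Hoxa13, chr6:52260881-52261130, minus strand: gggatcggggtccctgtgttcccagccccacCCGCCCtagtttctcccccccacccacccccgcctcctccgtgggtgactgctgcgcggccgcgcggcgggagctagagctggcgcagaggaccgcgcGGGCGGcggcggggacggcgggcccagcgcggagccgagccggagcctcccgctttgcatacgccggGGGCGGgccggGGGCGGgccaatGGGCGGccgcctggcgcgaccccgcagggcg
Of 32851 such windows in the RefSeq table, 37.3% held TTTAT, 11.8% held AGGTGT, 15.9% held TGACAG, 12.4% held TATAAA and 32.7% held GGGCGG. Among the 9 HOX genes, all of which had an entry, TTTAT was found in 3 windows, AGGTGT in 1, TGACAG in 0, TATAAA in 1 and GGGCGG in 5. No motif was shared by the 4 HOXD windows printed: Hoxd13 held 7 matches to GGGCGG, most of them in a run of overlapping matches, and a stretch in which 2 TATAAA and 2 TTTAT overlap, 1 of each on either strand, Hoxd11 held 2 TTTAT on the minus strand, and the windows of Hoxd10 and Hoxd12 held none of the 5 motifs. Base composition also differed, with 74.4% G or C before Hoxd13, 55.6% before Hoxd12, 44.8% before Hoxd11, 65.6% before Hoxd10 and 80.0% before Hoxa13, against a median of 52.4% over all windows. These matches are letters in a window and were not read as binding.

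FMK against DMSO asked which transcripts differ when caspases are blocked. Of the 10 genes 4 rose and 0 fell, where 20.6% of all genes tested passed the threshold (10.4% higher and 10.1% lower). The 4 were Hoxd10, Hoxd11, Hoxd12 and Hoxd13, a run of neighbours at the high-numbered end of the HOXD cluster. None of the 4 HOXA genes passed, nor did Hoxd9 or Tbx5. The median log2 fold change of the 10 was 0.23, beside -0.0064 over all genes tested.

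Hoxd12, a gene of the hand plate, showed the largest change of the 10. It had 15.4, 21.9 and 12.1 CPM in the FMK libraries, 12.1, 14.4 and 11.7 CPM in the OPH libraries and 7.47, 7.58 and 7.99 CPM in the DMSO libraries. All 3 FMK libraries and all 3 OPH libraries lay above all 3 DMSO libraries, and the FMK libraries were the most spread. With FMK the level was 2.15-fold that with DMSO (log2 fold change 1.10 ± 0.24, adjusted p = 0.00276). The DMSO values rest on 47 to 55 counts per library, for which counting alone gives an error of 14.1%, more than the 3.6% by which the 3 libraries differed.

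Hoxd13, which is needed for digits to form and is mutated in human synpolydactyly, had 139, 145 and 118 CPM in the FMK libraries, 125, 117 and 112 CPM in the OPH libraries and 104, 96.9 and 84.0 CPM in the DMSO libraries. The highest DMSO library lay under the lowest library of either inhibitor, while the FMK and OPH libraries overlapped. It rose by 0.49 ± 0.10 with FMK (1.41-fold, adjusted p = 0.00217). The calls of Hoxd12 and Hoxd13 with FMK were kept in all 14 alternative analyses, with adjusted p up to 0.0294 for Hoxd12 and up to 0.0173 for Hoxd13.

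Hoxd10, which acts in the upper arm and forearm, had 35.8, 40.3 and 41.2 CPM in the FMK libraries, 38.2, 38.0 and 34.7 CPM in the OPH libraries and 26.6, 26.5 and 31.1 CPM in the DMSO libraries. Every inhibitor library was above every DMSO library, and the inhibitors overlapped. It rose by 0.48 ± 0.13 with FMK (1.39-fold, adjusted p = 0.0152). The call was lost without DMSO 1 (adjusted p = 0.0620), DMSO 2 (0.0640) or FMK 2 (0.0507), and under library-size scaling (0.0503).

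Hoxd11, a gene of the forearm, had 63.4, 63.1 and 54.1 CPM in the FMK libraries, 55.5, 34.6 and 43.7 CPM in the OPH libraries and 38.1, 46.9 and 40.3 CPM in the DMSO libraries. The FMK libraries lay above all DMSO libraries, whereas the OPH libraries ran from under the lowest DMSO library to above the highest. Hoxd11 rose by 0.53 ± 0.15 with FMK (1.44-fold, adjusted p = 0.0199). This call was lost without DMSO 1 (adjusted p = 0.0807), DMSO 3 (0.0538), FMK 1 (0.0673) or FMK 2 (0.0728), without all libraries numbered 3 (0.0573), and under library-size scaling (0.0546).

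**Figure D1:**
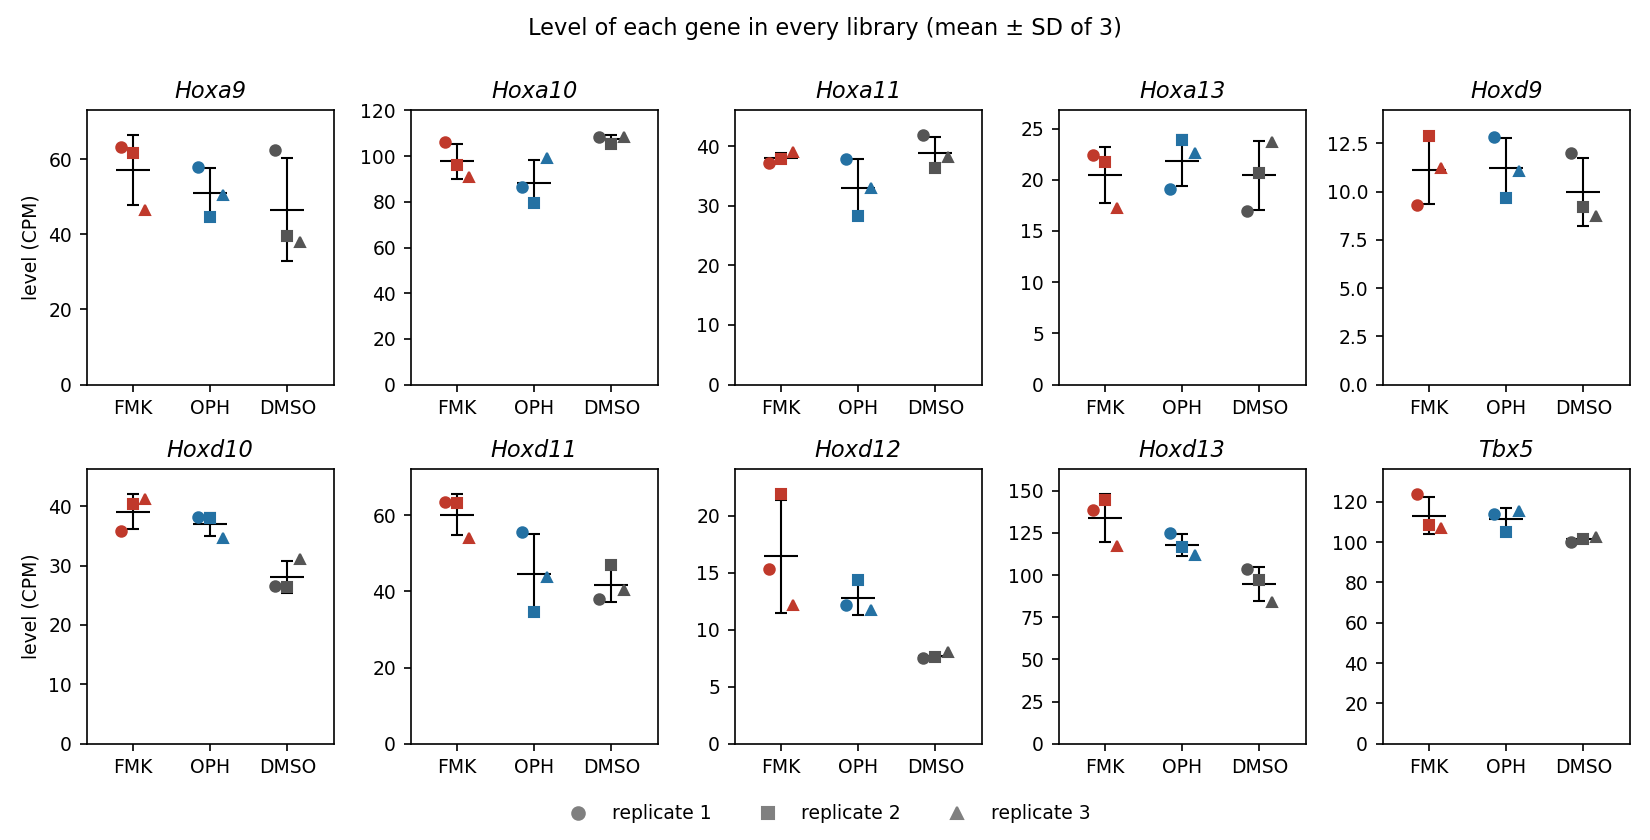
Level in CPM of each of the 10 genes in every library of the FMK, OPH and DMSO groups, from 0 on a linear axis. Symbols give the replicate number, and bars the mean ± SD of 3 libraries. For Hoxd10, Hoxd12 and Hoxd13 every FMK and OPH point lies above every DMSO point, and for Hoxa9, Hoxa11, Hoxa13 and Hoxd9 the 3 groups overlap.

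The remaining HOXD gene, Hoxd9, had 9.31 to 12.9 CPM in the FMK libraries, 9.67 to 12.8 CPM in the OPH libraries and 8.72 to 12.0 CPM in the DMSO libraries, which overlapped throughout. Its log2 fold change with FMK was 0.16 ± 0.24 (adjusted p = 0.702), with a 95% interval of -0.34 to 0.66 that includes the estimates of Hoxd10, Hoxd11 and Hoxd13. Whether Hoxd9 differs from its neighbours in response was therefore not shown.

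The HOXA genes gave no call with FMK. Hoxa9, the counterpart of Hoxd9, had 63.4, 61.5 and 46.5 CPM in the FMK libraries, 57.9, 44.5 and 50.5 CPM in the OPH libraries and 62.4, 39.5 and 37.9 CPM in the DMSO libraries. DMSO 1 stood apart from the other 2 DMSO libraries, and the log2 fold change with FMK was 0.30 ± 0.19 (adjusted p = 0.321). Without DMSO 1 it was 0.56 and passed the threshold (adjusted p = 0.0223).

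Hoxa10, an upper arm gene, had 106, 96.1 and 91.0 CPM in the FMK libraries, 86.4, 79.5 and 99.4 CPM in the OPH libraries and 108.4, 105.3 and 108.4 CPM in the DMSO libraries. All OPH libraries lay under all DMSO libraries, and FMK 1 overlapped the DMSO range. The log2 fold change was -0.13 ± 0.10 with FMK (adjusted p = 0.397).

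Hoxa11, whose product acts in the forearm with that of Hoxd11, averaged 38.0 ± 0.89 CPM with FMK, 33.1 ± 4.82 CPM with OPH and 38.8 ± 2.82 CPM with DMSO (SD, n = 3 each). Hoxa13, which acts in the hand plate with Hoxd13, averaged 20.5 ± 2.77 CPM with FMK, 21.9 ± 2.48 CPM with OPH and 20.4 ± 3.37 CPM with DMSO. The libraries of the 3 groups overlapped for both genes. With FMK the 95% interval of the log2 fold change was -0.31 to 0.25 for Hoxa11 (adjusted p = 0.912) and -0.37 to 0.38 for Hoxa13 (adjusted p = 0.992). Both intervals stop short of the estimates of Hoxd13 (0.49) and Hoxd12 (1.10). The interval of Hoxd13 itself, 0.28 to 0.71, overlaps that of Hoxa13, and these paralogues were not tested against each other. The interval of Hoxa9, -0.11 to 0.71, includes the estimates of Hoxd10, Hoxd11 and Hoxd13, and the difference between the clusters was not tested.

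Tbx5 had 124, 108 and 107 CPM in the FMK libraries, 114, 105 and 115 CPM in the OPH libraries and 100.0, 101 and 103 CPM in the DMSO libraries. Every inhibitor library lay above every DMSO library, by a small margin. The log2 fold change was 0.16 ± 0.09 with FMK (1.12-fold, adjusted p = 0.250) and 0.14 ± 0.09 with OPH (1.10-fold, adjusted p = 0.355), and neither passed the threshold. The 95% intervals, -0.03 to 0.35 with FMK and -0.05 to 0.33 with OPH, leave out a change as large as the estimates of Hoxd12. With OPH the interval of Hoxd12 itself, 0.22 to 1.23, overlaps that of Tbx5. The OPH interval of Tbx5 includes the 0.31 of Hoxd13 with OPH, so a rise like that of Hoxd13 is not left out there. With FMK the libraries of 5 of the 10 genes (the 4 called and Tbx5) lay all above those of DMSO, where 17.4% of all genes tested did so and 18.1% lay all below.

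OPH against DMSO gave smaller estimates in the same HOXD genes. Of the 10 genes 3 rose and 0 fell, where 16.7% of all genes tested passed the threshold (8.61% higher and 8.11% lower). Hoxd12 rose by 0.73 ± 0.24 (1.66-fold, adjusted p = 0.0451), Hoxd10 by 0.40 ± 0.13 (1.32-fold, adjusted p = 0.0467) and Hoxd13 by 0.31 ± 0.10 (1.24-fold, adjusted p = 0.0463). Hoxd11, at 44.6 ± 10.5 CPM with OPH and 41.8 ± 4.60 CPM with DMSO (SD, n = 3 each), had a log2 fold change of 0.09 ± 0.15 (adjusted p = 0.761). The median over the 10 genes was 0.13, beside -0.0025 over all genes tested. Libraries of 4 genes (Hoxd10, Hoxd12, Hoxd13 and Tbx5) lay all above those of DMSO, where 16.6% of all genes did, and those of Hoxa10 lay all below, where 17.1% did.

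These 3 rises lie close to the threshold. DESeq2, on the same genes, called 1 of the 10, Hoxd12. Without DMSO 2, OPH 1 or OPH 2 none of the 10 passed the threshold. Without DMSO 1 only Hoxd13 rose (adjusted p = 0.0409), without DMSO 3 only Hoxd10 rose (adjusted p = 0.0381), and without OPH 3 no gene rose and Hoxa10 fell by 0.37 (adjusted p = 0.0302). Without all libraries numbered 3, Hoxd10 rose by 0.52 (adjusted p = 0.0350), Hoxa10 fell by 0.36 (adjusted p = 0.0280), and Hoxd12 and Hoxd13 lost the call (0.0580 and 0.0865). In the fit with the replicate number as a block the 3 rises were kept and Hoxa10 fell by 0.28 (adjusted p = 0.0284), against -0.28 ± 0.10 with adjusted p = 0.0652 without the block. The authors' deposited table gave adjusted p under 0.05 to 0 of the 10 genes for OPH, with 0.0632 the lowest, and to 4 for FMK, with 0.000567 the lowest.

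Hoxa9, Hoxa11, Hoxa13 and Hoxd9 had log2 fold changes of 0.13, -0.23, 0.10 and 0.17 with OPH, with adjusted p of 0.730, 0.285, 0.787 and 0.710. The FMK and OPH comparisons share the 3 DMSO libraries, so a low or high DMSO value moves both in the same direction. For Hoxd12 the values side by side were 1.10 with FMK and 0.73 with OPH, for Hoxd13 0.49 and 0.31, for Hoxd10 0.48 and 0.40, and for Hoxd11 0.53 and 0.09 on the log2 scale.

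**Figure D2:**
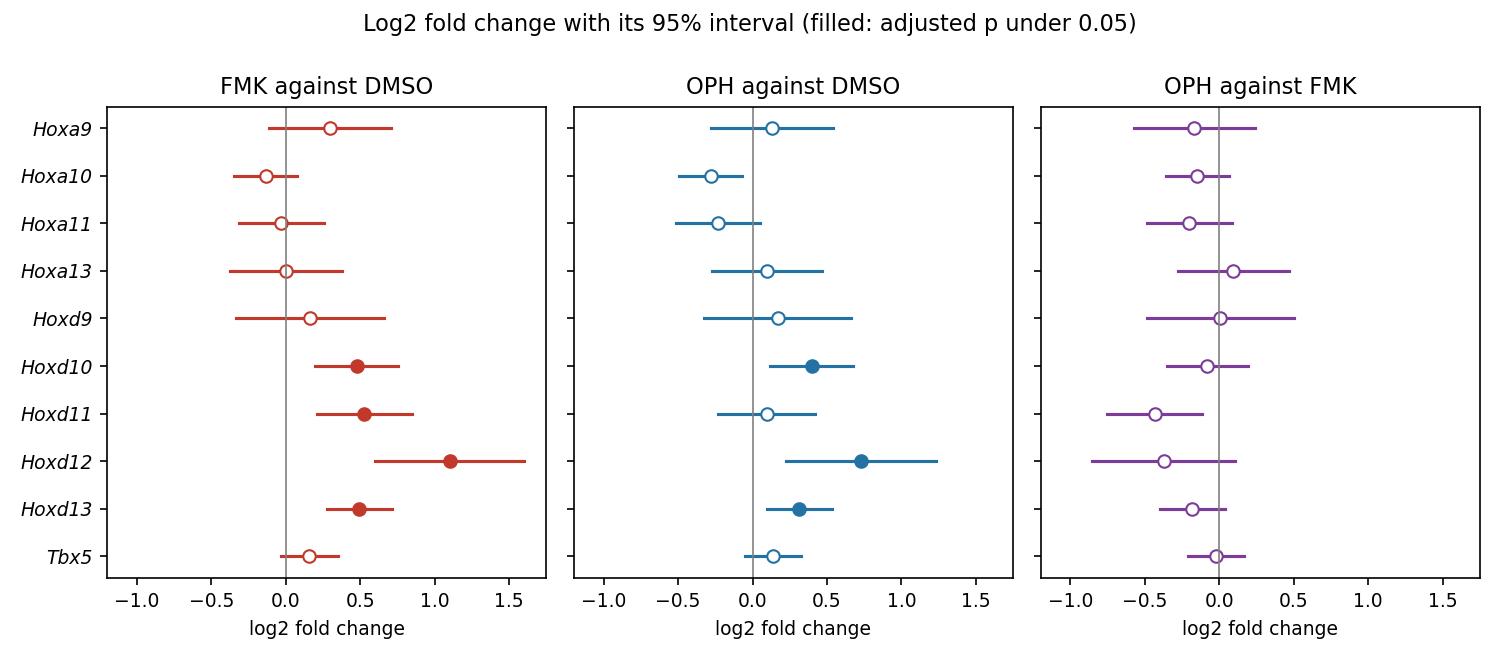
Log2 fold change (points) with its 95% interval (lines) of each gene for FMK against DMSO, OPH against DMSO and OPH against FMK. Filled points have an adjusted p under 0.05: Hoxd10, Hoxd11, Hoxd12 and Hoxd13 with FMK, Hoxd10, Hoxd12 and Hoxd13 with OPH, and no gene between the inhibitors.

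The inhibitors were also compared with each other at the same dose and time. In OPH against FMK 0 of the 10 genes passed the threshold with edgeR, where 8.86% of all genes tested did (4.20% higher and 4.66% lower). At an unadjusted p under 0.05 there was 1, Hoxd11, and DESeq2 called 0. Hoxd11 averaged 44.6 ± 10.5 CPM with OPH and 60.2 ± 5.29 CPM with FMK (SD, n = 3 each), which is -0.43 ± 0.15 on the log2 scale (adjusted p = 0.0861, 95% interval from -0.75 to -0.11). OPH 1, at 55.5 CPM, lay above FMK 3, at 54.1 CPM, so the groups overlapped. With the replicate block the change was -0.44 and passed the threshold (adjusted p = 0.0292), and so it did without OPH 1 (-0.62, adjusted p = 0.0228) and with every gene with a count tested (-0.43, adjusted p = 0.0233).

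For the other HOXD genes the intervals between OPH and FMK were wide, with -0.86 to 0.11 for Hoxd12, -0.40 to 0.04 for Hoxd13, -0.35 to 0.19 for Hoxd10 and -0.49 to 0.50 for Hoxd9. Tbx5 had the narrowest interval, -0.21 to 0.17, and Hoxa10 gave -0.36 to 0.07. The intervals do not show that the inhibitors act alike on these genes. Libraries of OPH and FMK overlapped for all 10 genes, while 13.9% of all genes tested lay all higher with OPH and 13.2% all lower.

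Summing the clusters gave a compact view of the same values, with sums chosen after the values were known and given without a test. The 5 HOXD genes summed to 261 ± 23.4 CPM with FMK, 223 ± 17.4 CPM with OPH and 182 ± 8.97 CPM with DMSO (SD, n = 3 each). The 4 HOXA genes summed to 213 ± 18.0 CPM with FMK, 194 ± 15.8 CPM with OPH and 213 ± 14.6 CPM with DMSO. HOXD genes thus made up 53.4%, 56.6% and 54.9% of the HOXA and HOXD counts in the FMK libraries, 54.7%, 54.8% and 50.9% in the OPH libraries and 45.0%, 48.1% and 45.2% in the DMSO libraries. Each inhibitor library lay above the highest DMSO library. This share is a ratio within a library, so the scaling between libraries does not enter it.

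Elsewhere in the 2 clusters no tested gene rose past the threshold. Of the 11 lower-numbered HOXA and HOXD genes, which act in the trunk and shoulder, 7 passed the filter on low counts. With FMK 0 of these rose and 1 fell, and with OPH against DMSO and OPH against FMK edgeR called none, with 1 and 0 at an unadjusted p under 0.05 and 0 and 0 by DESeq2. With the replicate block 1 fell with OPH against DMSO, where 1503 of 13255 genes fell in that fit. Over all genes tested 10.1% fell with FMK. Calls in either direction made up 16.7% of all genes in OPH against DMSO and 8.86% in OPH against FMK. Hoxd8, the next HOXD gene after Hoxd9, averaged 36.4 ± 3.14 CPM with FMK, 33.3 ± 1.33 CPM with OPH and 35.1 ± 1.43 CPM with DMSO (SD, n = 3 each), and was not called in any comparison (adjusted p = 0.816 for FMK and 0.777 for OPH against DMSO).

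Hoxa5, a gene of the shoulder and trunk, was the 1 that fell. It averaged 28.3 ± 4.27 CPM with FMK, 30.5 ± 2.60 CPM with OPH and 41.7 ± 10.3 CPM with DMSO (SD, n = 3 each), a log2 fold change of -0.56 ± 0.17 with FMK (adjusted p = 0.0259) and -0.45 ± 0.17 with OPH (adjusted p = 0.0780). The FMK call was lost without DMSO 3 (-0.35, adjusted p = 0.177), FMK 1 (0.0903), FMK 2 (0.125) or all libraries numbered 3 (0.0622). Evx2, the neighbour of Hoxd13 at the other end of the cluster, averaged 6.31 ± 3.41 CPM with FMK, 6.30 ± 0.49 CPM with OPH and 4.09 ± 1.63 CPM with DMSO, with log2 fold changes of 0.64 ± 0.41 for FMK and 0.62 ± 0.40 for OPH (adjusted p = 0.311 and 0.344). Hoxd8 and Evx2 are described as neighbours of the run and were picked for their position. Hoxd8 is also the tested gene of its list with the highest level over the OPH and FMK libraries.

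**Figure D3:**
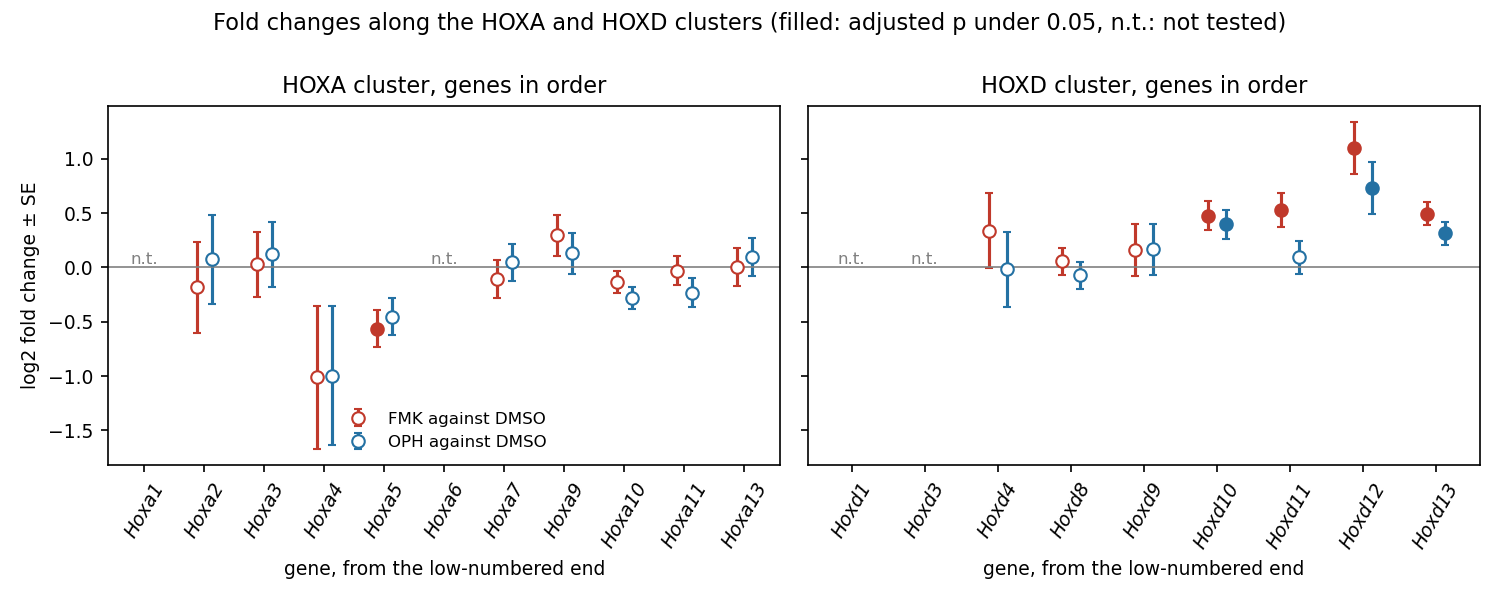
Log2 fold change ± SE of the HOXA genes (left) and HOXD genes (right) in the order of their numbers, for FMK and OPH against DMSO. Filled points have an adjusted p under 0.05 and n.t. marks genes that did not pass the filter on low counts. The filled points of the HOXD cluster are Hoxd10 to Hoxd13 with FMK and Hoxd10, Hoxd12 and Hoxd13 with OPH, and the 1 filled point of the HOXA cluster is Hoxa5 with FMK, below 0.

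Of the noncoding transcripts and EVX genes of the HOX clusters, 4 of 12 passed the filter. None was called with FMK against DMSO or OPH against FMK (1 and 1 at an unadjusted p under 0.05, 0 and 0 by DESeq2). Of all genes tested, 20.6% and 8.86% were called in these comparisons. With OPH 1 fell, where 8.11% of all genes tested fell. The 1 that fell was Hoxa11os, the antisense transcript of Hoxa11. It had 22.1, 25.1 and 22.8 CPM in the FMK libraries, 17.1, 16.2 and 20.9 CPM in the OPH libraries and 28.0, 28.7 and 28.5 CPM in the DMSO libraries. The groups did not overlap, and the order ran from OPH, the lowest, through FMK to DMSO. The log2 fold change was -0.65 ± 0.15 with OPH (adjusted p = 0.00657) and -0.28 ± 0.15 with FMK (adjusted p = 0.219). Hoxa11 itself was lower by a log2 fold change of -0.23 ± 0.13 in OPH against DMSO without passing the threshold, and the reads of this overlapping pair may be mixed.

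Of the 19 HOXB and HOXC genes, which serve mainly the trunk, 12 passed the filter and edgeR called none in any comparison. Of all genes tested, 20.6% were called with FMK, 16.7% with OPH and 8.86% between OPH and FMK. At an unadjusted p under 0.05 there were 2 for FMK against DMSO, 2 for OPH against DMSO and 1 for OPH against FMK, and DESeq2 called 1, 0 and 0. With the replicate block 2 rose with FMK, where 1779 of 13255 genes rose in that fit. Hoxc6, the one with the highest level, averaged 17.0 ± 3.91 CPM with FMK, 20.7 ± 2.75 CPM with OPH and 16.5 ± 1.54 CPM with DMSO (SD, n = 3 each).

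HOX proteins bind DNA together with TALE homeodomain proteins of the PBX and MEIS families. Of 8 such genes tested, 0 rose and 1 fell with OPH against DMSO, where 8.11% of all genes tested fell. Between OPH and FMK edgeR called none of the 8 (1 at an unadjusted p under 0.05, 0 by DESeq2), where 8.86% of all genes tested were called. Pbx3 averaged 109 ± 7.42 CPM with FMK, 95.9 ± 9.18 CPM with OPH and 129 ± 27.7 CPM with DMSO, and fell by 0.43 ± 0.13 with OPH (adjusted p = 0.0327). Its call was lost without DMSO 3 (-0.23, adjusted p = 0.177), OPH 1 (0.0793), OPH 2 (0.146) or all libraries numbered 3 (0.071). It was also lost in a fit of only the OPH and DMSO libraries (adjusted p = 0.0602). Meis1 and Meis2, whose products mark the upper arm, were not called, with log2 fold changes from -0.03 to 0.05 against DMSO.

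Of 31 other transcription factor genes of the limb mesenchyme tested, 12 rose and 0 fell with FMK, where 10.4% of all genes tested rose and 10.1% fell. With OPH 7 rose and 0 fell, where 8.61% of all genes rose and 8.11% fell. With the replicate block 14 rose and 2 fell with FMK, and 8 rose and 2 fell with OPH. That fit called more genes in all, of 13255 tested 1779 higher and 1773 lower with FMK, and 1536 and 1503 with OPH. The log2 fold changes of the 31 ran from -0.67 to 1.27 with FMK (median 0.33) and from -0.76 to 1.00 with OPH (median 0.15), where all genes tested had medians of -0.0064 and -0.0025. Prrx1, a homeobox gene of limb mesenchyme, averaged 445 ± 24.5 CPM with FMK, 390 ± 17.8 CPM with OPH and 325 ± 9.77 CPM with DMSO (SD, n = 3 each), and rose by 0.45 ± 0.08 with FMK (adjusted p = 0.000271) and 0.26 ± 0.08 with OPH (adjusted p = 0.0220). Msx1, a homeobox gene of undifferentiated limb mesenchyme and a BMP target, averaged 69.0 ± 7.96 CPM with FMK, 57.2 ± 8.55 CPM with OPH and 28.5 ± 9.38 CPM with DMSO. It rose by 1.27 ± 0.22 with FMK (adjusted p = 0.00142) and by 1.00 ± 0.22 with OPH (adjusted p = 0.00832).

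Tbx3, a T-box gene of the limb margins, averaged 28.2 ± 4.35 CPM with FMK, 27.9 ± 3.78 CPM with OPH and 15.8 ± 1.82 CPM with DMSO, and rose by 0.84 ± 0.17 with FMK (adjusted p = 0.00179) and 0.82 ± 0.17 with OPH (adjusted p = 0.00275). Twist1, a basic helix-loop-helix gene of mesenchyme, rose by 0.52 ± 0.10 with FMK (adjusted p = 0.00104) and 0.38 ± 0.10 with OPH (adjusted p = 0.0139). Shox2, which is needed for the upper arm bone, rose by 0.51 ± 0.11 with FMK (adjusted p = 0.0020) and 0.39 ± 0.11 with OPH (adjusted p = 0.0160). With FMK the calls of these 5 genes were kept in all alternatives. With OPH those of Tbx3 and Msx1 were kept, while Prrx1 lost its call without DMSO 1 (adjusted p = 0.103), OPH 1 (0.0683), OPH 3 (0.0919) or the libraries numbered 3 (0.0562), Twist1 without DMSO 1 (0.0814) or OPH 2 (0.0780), and Shox2 without DMSO 1 (0.0541) or DMSO 2 (0.0708). Between OPH and FMK edgeR and DESeq2 called none of the 31, with 8 at an unadjusted p under 0.05. Of all genes tested, 8.86% were called there by edgeR. With the replicate block 0 of the 31 rose and 3 fell, where 1031 of 13255 genes rose and 1108 fell.

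**Figure D4:**
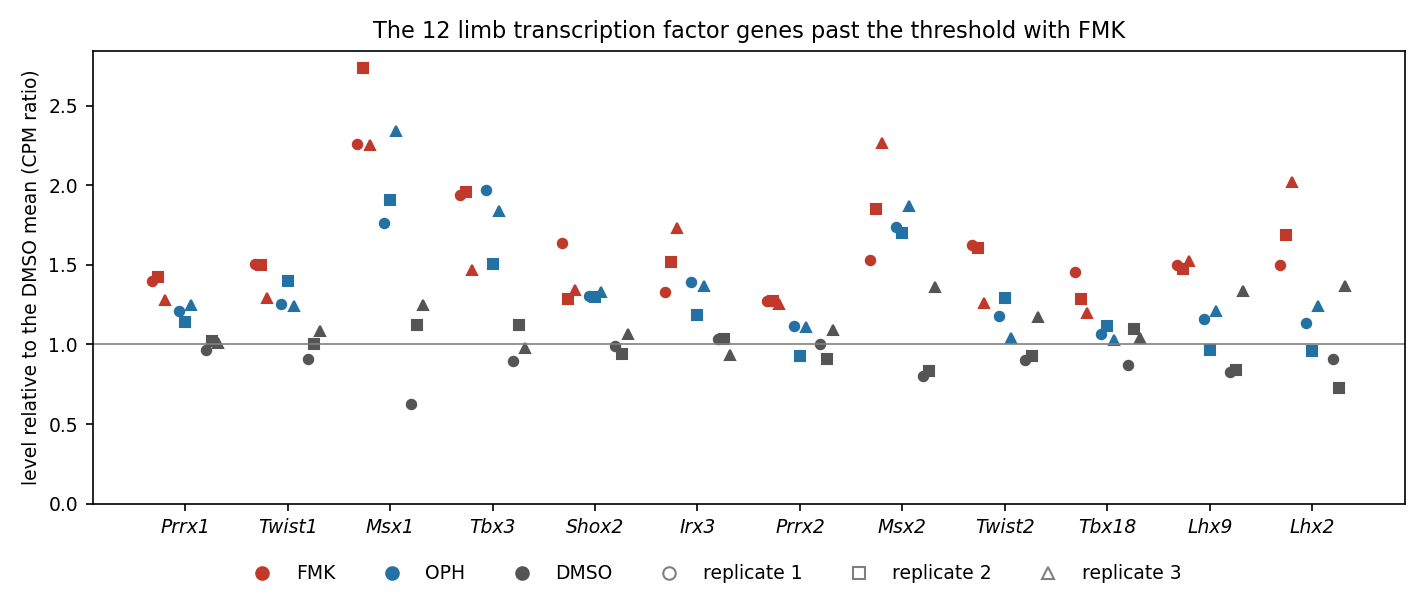
CPM in every library of the 12 limb transcription factor genes that passed the threshold with FMK, each divided by the mean of its 3 DMSO libraries (line at 1), on a linear axis. The genes were chosen by their FMK call, so the height of the FMK points is a description. Msx1 reaches the highest FMK points, and its DMSO libraries are spread from 17.9 to 35.6 CPM.

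Among 17 limb signalling genes tested, 4 rose and 1 fell with FMK, 1 rose and 2 fell with OPH, and 0 rose and 4 fell in OPH against FMK. Over all genes tested 10.4% rose and 10.1% fell with FMK, and 8.61% rose and 8.11% fell with OPH. Between OPH and FMK 4.20% rose and 4.66% fell. Bmp2, a BMP ligand and a reported target of the HOX proteins numbered 13, averaged 32.3 ± 4.82 CPM with FMK, 25.6 ± 2.51 CPM with OPH and 16.3 ± 2.23 CPM with DMSO (SD, n = 3 each). It rose by 0.99 ± 0.17 with FMK (adjusted p = 0.000307) and 0.65 ± 0.17 with OPH (adjusted p = 0.0120), the OPH call being lost without DMSO 1 (0.0629) or OPH 3 (0.0568). Bmp4, another BMP ligand, fell by 0.35 ± 0.09 with FMK (adjusted p = 0.00772) and by 0.51 ± 0.09 with OPH (adjusted p = 0.000434). Etv4, a target of FGF signalling, averaged 13.2 ± 1.53 CPM with FMK, 4.85 ± 0.27 CPM with OPH and 4.11 ± 1.10 CPM with DMSO, and rose by 1.67 ± 0.28 with FMK (adjusted p = 0.000343). In OPH against FMK it fell by 1.44 ± 0.28 (adjusted p = 0.00357).

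Grem1, a BMP antagonist gene of the limb bud, averaged 20.1 ± 0.95 CPM with FMK, 9.44 ± 2.02 CPM with OPH and 9.89 ± 4.53 CPM with DMSO. It rose by 1.03 ± 0.27 with FMK (adjusted p = 0.0105, lost without DMSO 2 at 0.0578 and without the libraries numbered 3 at 0.0549) and fell by 1.09 ± 0.27 in OPH against FMK (adjusted p = 0.0160, lost without FMK 1 at 0.0604 and without OPH 2 at 0.0921). Dusp6, a feedback phosphatase of FGF signalling, averaged 55.7 ± 8.80 CPM with OPH, 98.1 ± 13.8 CPM with FMK and 76.9 ± 9.23 CPM with DMSO. It fell by 0.82 ± 0.13 in OPH against FMK (adjusted p = 0.00107) and by 0.47 ± 0.13 in OPH against DMSO (adjusted p = 0.0224), the last lost without DMSO 1 (0.0537), DMSO 3 (0.102), OPH 1 (0.109) or OPH 2 (0.0988). Cyp26b1, which breaks down retinoic acid, fell by 0.65 ± 0.17 in OPH against FMK (adjusted p = 0.0218, lost without FMK 1 at 0.0692, FMK 3 at 0.0542, OPH 1 at 0.0530 or OPH 2 at 0.108). Aldh1a2, a retinoic acid synthesis gene, rose by 1.06 ± 0.30 with FMK (adjusted p = 0.0174, lost without DMSO 1 at 0.0774, DMSO 2 at 0.0547, FMK 2 at 0.0521, FMK 3 at 0.0949 or the libraries numbered 3 at 0.0573). Shh, Fgf4 and Fgf8, the signals of the limb bud's posterior margin and tip, had 0 counts in all 9 libraries.

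Reported targets of the HOX proteins numbered 13 or of TBX5 numbered 6 after the filter. With FMK 2 rose and 0 fell, and with OPH 1 rose and 0 fell. Over all genes tested 10.4% rose with FMK and 8.61% with OPH. The risers were Bmp2 and Aldh1a2 with FMK and Bmp2 with OPH, already given. At an unadjusted p under 0.05, 3 were higher and 1 lower with FMK. Epha7, also on this list, was lower with either inhibitor and not called. It averaged 43.1 ± 4.98 CPM with FMK, 44.4 ± 5.28 CPM with OPH and 53.9 ± 8.98 CPM with DMSO, and the libraries overlapped. Fgf10, the target of TBX5 in the early bud, averaged 6.48 ± 2.49 CPM with FMK, 14.2 ± 6.83 CPM with OPH and 10.5 ± 4.70 CPM with DMSO (SD, n = 3 each), which overlapped, and was not called (adjusted p = 0.358 for FMK and 0.577 for OPH against DMSO). Hand2, the target with the highest level over the OPH and FMK libraries, averaged 50.2 ± 6.47 CPM with FMK, 48.9 ± 8.13 CPM with OPH and 39.8 ± 6.19 CPM with DMSO. Between OPH and FMK edgeR and DESeq2 called none of the 6, with 2 at an unadjusted p under 0.05. Of all genes tested, 8.86% were called there by edgeR. With the replicate block 1 of the 6 rose, where 1031 of 13255 genes rose.

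Polycomb proteins hold HOX genes silent and Trithorax proteins keep them active. Of 18 such genes tested, 2 rose and 0 fell with FMK, 6 rose and 0 fell with OPH, and 1 rose and 0 fell in OPH against FMK. With the replicate block the count between OPH and FMK was 4 rising and 1 falling, where 1031 of 13255 genes rose and 1108 fell in that fit. The shares that follow are those without the block. Over all genes tested 10.4% rose and 10.1% fell with FMK, and 8.61% rose and 8.11% fell with OPH. In OPH against FMK 4.20% rose and 4.66% fell. The rises with FMK and in OPH against FMK were near these shares. Eed, a core subunit of the Polycomb complex that methylates histone H3, averaged 50.4 ± 2.26 CPM with FMK, 50.7 ± 1.87 CPM with OPH and 36.6 ± 2.75 CPM with DMSO (SD, n = 3 each), and rose by 0.46 ± 0.12 with FMK (adjusted p = 0.00824) and 0.47 ± 0.12 with OPH (adjusted p = 0.00861). Phc2, a subunit of the other main Polycomb complex, rose by 0.57 ± 0.10 with FMK (adjusted p = 0.000589). With OPH the rises included Kmt2d and Kmt2a, Trithorax-type histone methyltransferase genes, by 0.67 ± 0.15 (adjusted p = 0.00572) and 0.61 ± 0.15 (adjusted p = 0.0106), and Kdm6b, a demethylase gene that opposes Polycomb, by 0.49 ± 0.11 (adjusted p = 0.00581). Rnf2, the ubiquitin ligase subunit of Polycomb, rose by 0.35 ± 0.09 with OPH against DMSO (adjusted p = 0.0132, lost without DMSO 1 at 0.0721 and without OPH 2 at 0.0551) and by 0.38 ± 0.09 in OPH against FMK (adjusted p = 0.0165, lost without FMK 1 at 0.0884, OPH 2 at 0.0743 or OPH 3 at 0.0587). The call of Kmt2a was lost without DMSO 1 (0.0522), OPH 3 (0.0512) or the libraries numbered 3 (0.0535).

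Levels of cell type markers moved with the groups as well. Whether the makeup of the cultures or the RNA per cell changed cannot be told from them. The counts of called markers stand beside shares of all genes tested of 10.4% rising and 10.1% falling with FMK, and 8.61% and 8.11% with OPH. With the replicate block 1773 of 13255 genes fell with FMK and 1503 with OPH. Cartilage markers summed to 1565 to 1691 CPM with FMK, 1506 to 2634 CPM with OPH and 3069 to 4553 CPM with DMSO, and of the 15 tested 11 fell with FMK and 6 fell with OPH, the last count being 10 with DESeq2 and 12 with the replicate block. Macrophage markers summed to 34.1 to 46.4 CPM with FMK, 221 to 255 CPM with OPH and 1370 to 2632 CPM with DMSO, with 14 of 14 falling with either inhibitor. Mrc1 had 0 counts in FMK 1 and FMK 3 and Adgre1 had 0 counts in FMK 2, and no macrophage marker was at 0 with OPH or DMSO. Limb mesenchyme markers summed to 15450 to 16330 CPM with FMK, 11770 to 12200 CPM with OPH and 14400 to 16940 CPM with DMSO, with 7 of 10 rising and 0 falling with FMK and 4 rising and 1 falling with OPH. Most of this sum is Col1a1, a collagen gene, which averaged 11150 ± 598 CPM with FMK, 8750 ± 157 CPM with OPH and 11770 ± 1327 CPM with DMSO (SD, n = 3 each) and is the marker that fell with OPH. The mean log2 CPM of the list, in which each gene counts alike, was 7.85 to 8.01 with FMK, 7.62 to 7.65 with OPH and 7.27 to 7.58 with DMSO. The list shares Prrx1, Prrx2, Twist1, Twist2, Msx1, Msx2 and Tbx15 with the limb transcription factor genes given above. Most markers that rose with FMK and all that rose with OPH are among these shared genes. The counts of the 2 lists are therefore not separate results. Tendon and joint markers summed to 419 to 486 CPM with FMK, 442 to 532 CPM with OPH and 727 to 837 CPM with DMSO, with 1 of 7 rising and 2 falling with FMK and 3 falling with OPH. The 1 that rose was Prg4, the gene of the joint lubricant lubricin, at 93.7 ± 43.4 CPM with FMK, 11.3 ± 2.38 CPM with OPH and 9.86 ± 3.94 CPM with DMSO (log2 fold change 3.24 ± 0.47 with FMK, adjusted p = 0.00334), named after its values were seen. The part of these shifts in the HOXD values was not tested.

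Adipocyte markers summed to 112 to 204 CPM with FMK, 722 to 2793 CPM with OPH and 482 to 2456 CPM with DMSO, and skeletal muscle markers to 100.3 to 439 CPM with FMK, 194 to 571 CPM with OPH and 196 to 658 CPM with DMSO. Of 9 adipocyte markers tested 5 fell with FMK, or 9 with DESeq2 or the replicate block, and of 11 muscle markers none was called with FMK by edgeR (1 at an unadjusted p under 0.05, 1 by DESeq2), while 6 fell with the replicate block. The adipocyte genes Cidec and Lep were at 0 in all FMK libraries. Lep did not pass the filter on low counts, and had 0 counts in DMSO 3 and at most 2 counts in an OPH library. In each group library 3 had the lowest adipocyte and the highest muscle sum. Without the libraries numbered 3, Hoxd10, Hoxd12 and Hoxd13 kept their FMK calls and Hoxd11 did not, and with OPH only Hoxd10 of the 3 rises was kept. Ectoderm and keratinocyte markers summed to 7.60 to 9.75 CPM with FMK, 2.71 to 5.38 CPM with OPH and 4.51 to 4.84 CPM with DMSO, and 1 of 2 tested rose with FMK. This was Krt18, which makes up most of the sum with FMK (mean of 5.86 CPM). Endothelial markers summed to 10.4 to 18.9 CPM with FMK, 9.70 to 12.5 CPM with OPH and 8.43 to 13.2 CPM with DMSO, and 1 of 3 tested rose with FMK. Glial and melanocyte markers summed to 25.4 to 37.05 CPM with FMK, 32.7 to 39.9 CPM with OPH and 32.4 to 47.8 CPM with DMSO, and of 3 tested 1 rose and 1 fell with either inhibitor. Mitf rose (means of 24.5, 21.7 and 13.8 CPM with FMK, OPH and DMSO) and S100b fell (3.6, 7.6 and 21.3 CPM). Sox10 had 0 counts in all libraries. Of all genes tested 20.6% were called with FMK and 16.7% with OPH. Counts of 1 in lists of 2 or 3 tested genes are too small to read against these shares and were not taken as results about a cell type.

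**Figure D5:**
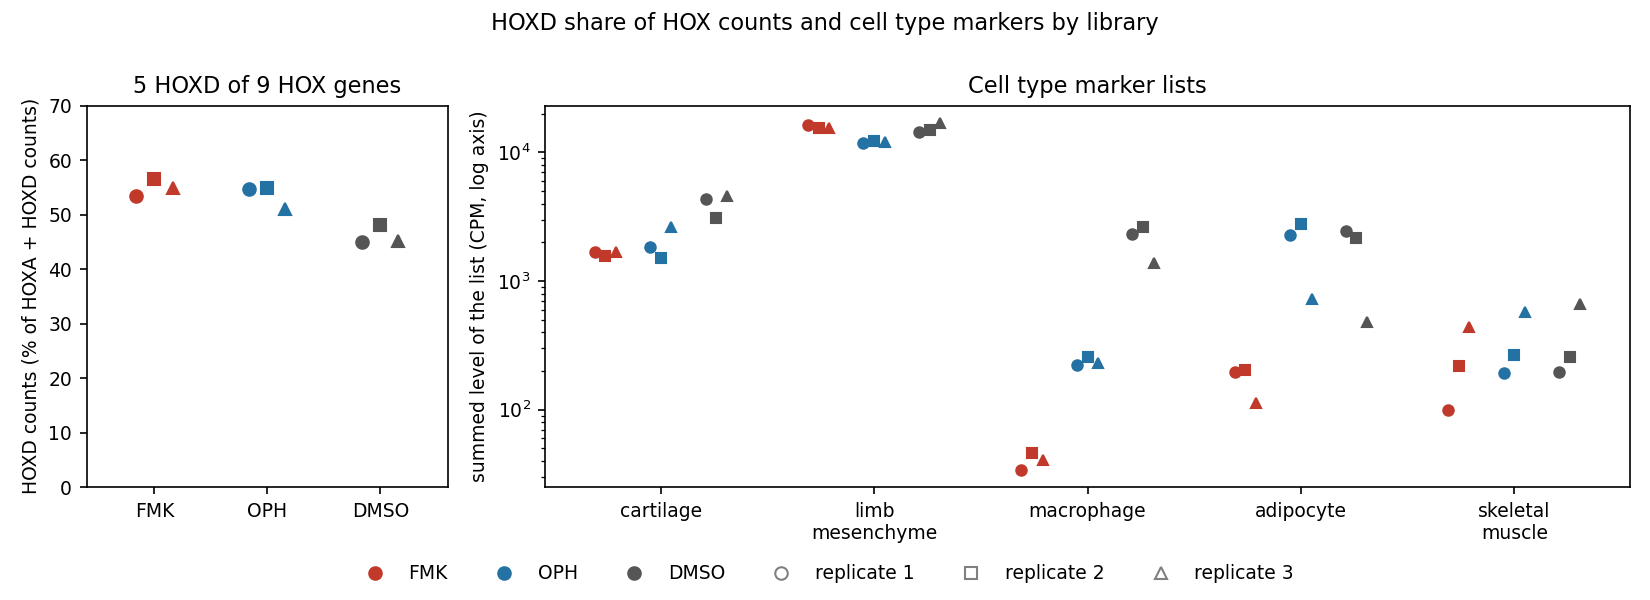
Left, HOXD counts as a percentage of the counts of all 9 HOX genes in each library, on an axis from 0. Right, summed CPM of 5 cell type marker lists in each library, on a log axis. The FMK and OPH libraries lie at 50.9% to 56.6% and the DMSO libraries at 45.0% to 48.1%, while macrophage and cartilage sums are highest with DMSO.

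Levels of the genes were also followed across the 9 libraries, with Pearson's r of log2 CPM as a description that includes the group differences and with library makeup shared between points. The 10 pairs of HOXD genes had r from 0.331 to 0.891 (median 0.554), with Hoxd12 and Hoxd13 the closest pair. The 6 pairs of HOXA genes ran from -0.666 to 0.607 (median -0.0157) and the 20 pairs of a HOXA with a HOXD gene from -0.691 to 0.755 (median 0.0196). After the group means were removed, the median r was 0.123 for the HOXD pairs (from -0.502 to 0.495), 0.235 for the HOXA pairs (from -0.684 to 0.578) and 0.0837 for the mixed pairs (from -0.703 to 0.810). Over all genes, those most like Tbx5 in the 9 libraries were Rpl17-ps10 (0.943), AC142113.2 (0.921), Mllt3 (0.918), Lrig3 (0.912) and Rgs17 (0.906). Among those most like the mean of the 9 HOX genes were Ikbke (0.960), Gabre (0.952), Frmd5 (0.946) and Sat1 (0.944). These r are the highest picked from all genes tested over 9 libraries, so their height comes partly from the choice. Several of the genes have low levels, with means of 2.78 CPM for AC142113.2, 3.74 for Rgs17, 6.02 for Rpl17-ps10, 2.10 for Frmd5 and 4.47 for Gabre.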

How the data were processed

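RNA was measured in 9 libraries (3 per group) made with a 3' end kit, per the labels' protocols. The authors deposited raw counts per gene and library, and, per the file headers, DESeq2 log2 fold changes with adjusted p-values, whose signs run DMSO over inhibitor. The submitters' processing notes name STAR, cutadapt, DESeq2, FastQC and MultiQC and the mm10 build. Not given in the sources used here are versions, the counting program, its annotation and its use of strand. The 99 spike-in rows, with 1 count in all, were left out. GENCODE M21 held 99.7% of the identifiers.

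The test was that of edgeR 4.0.16 (R 4.3.3) on the counts (filterByExpr, 13255 genes, TMM, robust quasi-likelihood F test, two-sided, all 9 libraries, 1 coefficient per group), after a test on simulated data. TMM factors were 0.945 to 0.963 with FMK, 1.02 to 1.03 with OPH and 1.02 to 1.03 with DMSO. The common dispersion was 0.0243. With 3 libraries per group an exact permutation test cannot go below p = 0.1, so single genes were tested in this fit. Libraries of a group differed beyond counting noise (5.47 to 13.5 by chi-square over its degrees of freedom), and none was a copy of another. Deviations from the group means of libraries with the same number correlated in all 9 pairs (r from 0.102 to 0.344, against -0.275 to 0.0147 for different numbers). Such deviations cancel within a group, so positive r for equal numbers lowers r for different numbers. The labels do not say that equal numbers share a litter or day, so the main fit had no block. A pairing by number remains possible, and a fit with the number as a block was an alternative. DESeq2 1.42.0, RLE or library-size scaling, other filters, fits of 2 groups and leaving out libraries were the others.

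The 10 genes, the related lists and the marker lists were chosen with earlier results of these data known. All 10 genes are named. From each related list up to 5 genes past the threshold in a comparison are named, smallest p first, or else the tested gene with the highest level, and for likeness the 5 most correlated genes. Some genes that this rule names are not reported here. Evx2, Meis1, Meis2, Fgf10, Epha7, Tbx4, Pitx1, Hoxc10, Hoxc11, Shh, Fgf4 and Fgf8 are named besides. Single genes of the marker lists are also named outside the rule. They are Col2a1, Col1a1, Col3a1, Mrc1, Adgre1, Prg4, Cidec, Lep, Krt18, Mitf, S100b, Sox10, Prrx2, Twist2, Msx2 and Tbx15. Sequences are RefSeq's (GRCm38.p6), and Tbx5 had no entry. Counting intervals cover counting error only.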

Additional observations from a re-analysis of the deposited data

How the results depend on the processing

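Over the 10 genes and 3 comparisons, 420 alternative values were computed, of which 364 kept direction and side of the threshold, 32 lost the call, 7 gained it and 17 changed sign. Of 616 values for called genes of the related lists, 531 kept both, 85 lost the call and 0 changed sign. The number of the 10 genes called was 2 for FMK against DMSO under library-size scaling, and 2 to 4 when 1 library was left out (2 without FMK 2). For OPH against DMSO it was 1 with DESeq2 and 0 to 1 when 1 library was left out. For OPH against FMK it was 1 with every gene with a count tested, 1 with the replicate block, and 0 to 1 when 1 library was left out. Over all genes, OPH against FMK gave 2139 calls with the replicate block against 1175 without it, and 571 to 1050 when 1 library was left out (712 without FMK 1, 709 without FMK 2, 571 without OPH 2). Among the 10 genes the replicate block changed the calls of Hoxa10 (OPH against DMSO) and Hoxd11 (OPH against FMK), given above, and no other, and no called gene of the related lists lost its call. Under library-size scaling FMK against DMSO split into 1012 higher and 1938 lower genes, against 1383 and 1341, and OPH against FMK into 1103 and 385, against 557 and 618. Signs changed only in uncalled values. Those of FMK against DMSO were Hoxa11 (-0.075 to 0.030 when 1 library was left out) and Hoxa13 (-0.099 under library-size scaling, -0.11 to 0.13 when 1 was left out). Those of OPH against DMSO, when 1 was left out, were Hoxa13 (-0.021 to 0.22) and Hoxd11 (-0.095 to 0.25). Those of OPH against FMK were Hoxa13 (-0.035 without the libraries numbered 3, -0.00999 to 0.18 when 1 was left out), Hoxd9 (-0.0013 with the replicate block, -0.11 to 0.12), Hoxd10 (0.028 under library-size scaling, 0.0022 without the libraries numbered 3) and Tbx5 (0.086 under library-size scaling, -0.058 to 0.045). The cause was not tested. Where a fit left a group with 2 libraries, its spread was shared with the other groups. Depth limits Hoxd12 and Hoxd9 most, at 47 to 141 and 57 to 90 counts per library.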
